A study of Homo sapiens with 12 samples.

Results

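Immediate early genes are switched on by signalling without new protein synthesis, and their mRNAs usually decay within minutes to hours. The 10 genes described here are FOS, FOSB, FOSL1, JUN, JUNB and JUND (subunits of the transcription factor AP-1), EGR1 (a zinc finger transcription factor), IER2 and IER3 (early response proteins) and DUSP1 (a phosphatase that switches off MAP kinases). They were chosen by symbol, and all 10 were among the 23615 genes of the deposited count and FPKM tables. All 10 also passed the filter on low counts that left 16005 genes for testing, although EGR1 did so through the shHuR line alone, with a count of at least 10 in 2 of 6 shHuR and 0 of 6 shControl libraries.

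RNA came from HEK293T cells, a line derived from human embryonic kidney, that expressed either a control hairpin (shControl) or a hairpin against HuR (shHuR). Both lines were made with a lentiviral pLKO vector and selected with puromycin. Cells of each line were untreated, treated with 25 µM HNE(alkyne), an alkyne-tagged form of the lipid-derived electrophile 4-hydroxynonenal, or treated with 225 µM H2O2, in each case for 18 h. Line and treatment made 6 groups of 2 biological replicates, and so 12 libraries. Each line was the selected population of 1 hairpin, so that the hairpin and the line cannot be told apart.

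AP-1 is a pair of basic leucine zipper proteins, in which a FOS family member needs a JUN family partner, while JUN proteins can also pair with each other or with ATF proteins. Its genes and EGR1 are induced through the ERK, JNK and p38 MAP kinases, and DUSP1 and the Sprouty proteins feed back on those kinases. Many of these mRNAs carry AU-rich elements in the 3′ untranslated region (UTR), built from the pentamer ATTTA (in DNA letters). Decay factors such as ZFP36 and KHSRP bind there, and so does HuR, encoded by ELAVL1, which is known mainly for stabilizing the mRNAs it binds.

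The AU-rich sequence of the 10 genes was unequal. In the longest 3′ UTR annotated per gene (GENCODE release 29, where all 10 matched), the pentamer ATTTA was counted on the sense strand, overlaps allowed. IER3 held 6 pentamers, FOS 5, DUSP1 4, FOSB and JUN 3 each, JUNB 2, and FOSL1, JUND and EGR1 1 each. IER2 held none in 1050 bases, where 74.1% of UTRs within 20% of that length held at least 1. The longer nonamer TTATTTATT, which contains a pentamer, occurred once in FOS and in 2 places in DUSP1, and in none of the other 8. Of all 19074 genes with a 3′ UTR, 67.3% held a pentamer and 8.16% a nonamer. As many pentamers as in IER3 were held by 5.85% of UTRs of similar length, as in FOS by 7.68% and as in DUSP1 by 9.06%, while the 3 of JUN were reached by 43.1%. The count depended on the transcript for FOS (0 to 5 over 6 coding transcripts), FOSB (0 to 3 over 7) and FOSL1 (0 to 1 over 4). One window of 30 bases per gene is shown for the genes with a nonamer, for IER3 and for the AP-1 genes that differed between the lines, with pentamers and nonamers in capitals, 5′ to 3′ on the mRNA strand (GRCh38 positions):
FOS, chr14:75282068-75282097, plus strand: ATTTATTTATTaagatggattctcagatat
DUSP1, chr5:172768642-172768671, minus strand: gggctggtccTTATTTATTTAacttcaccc
IER3, chr6:30743648-30743677, minus strand: taattaatATTTAtatgtATTTAtgtacgt
JUN, chr1:58781336-58781365, minus strand: ttccagaaaggatATTTAagaaaatacaat
JUNB, chr19:12793059-12793088, plus strand: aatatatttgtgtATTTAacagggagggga
JUND, chr19:18279998-18280027, minus strand: tcgattctgccctATTTAtgtttctactcg
FOSL1, chr11:65892272-65892301, minus strand: gagggcagctgctATTTAttttcctaaaga

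FOS and DUSP1 thus show pentamers that run into each other, whereas the windows of JUN, JUNB, JUND and FOSL1 hold single pentamers. A match is a stretch of letters and not a measured binding site.

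Total counts per library ran from 24855946 to 29907258. ELAVL1, the target of the hairpin, was at 86.0 to 99.4 CPM (counts scaled to a common library size by TMM) in shControl and 69.3 to 74.5 CPM in shHuR libraries, a partial fall of 23.3% over all treatments (log2 fold change -0.38, SE 0.0405). Of 8 genes listed as typical of HEK293T cells, 7 reached at least 1 CPM in some library, the exception being PAX2. Their summed level was 766 to 853 CPM in shControl and 642 to 704 CPM in shHuR, of which VIM had 345 to 521 CPM over all libraries. Endothelial and hepatocyte markers summed to at most 0.373 CPM, and PTPRC and CD3E stayed at or below 0.0818 CPM.

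FOS, FOSB, FOSL1 and EGR1 were nearly silent and JUN was abundant. On the FPKM scale, which is per length and so compares genes, the mean over 12 libraries was 66.1 ± 10.5 (SD, n = 12) for JUN. IER2 followed at 12.4 ± 1.57, JUND at 11.0 ± 1.70 and DUSP1 at 8.98 ± 0.627 FPKM (SD, n = 12). IER3 (3.17 FPKM) and JUNB (3.03 FPKM) formed a lower level, below which came FOSL1 (0.675 FPKM), FOS (0.445 FPKM), FOSB (0.129 FPKM) and EGR1 (0.0803 FPKM). JUN lay above IER2, DUSP1 above IER3, JUNB above FOSL1 and FOS above FOSB in 12 of 12 libraries with no overlap of their ranges. The neighbours IER2 and JUND, JUND and DUSP1, IER3 and JUNB, FOSL1 and FOS, and FOSB and EGR1 overlapped. The low end rested on few reads: 0 to 21 counts per library for EGR1, 3 to 26 for FOSB, 17 to 36 for FOS and 14 to 40 for FOSL1, against 4456 to 6980 for JUN. Precision for those 4 genes was limited accordingly.

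**Figure D1:**
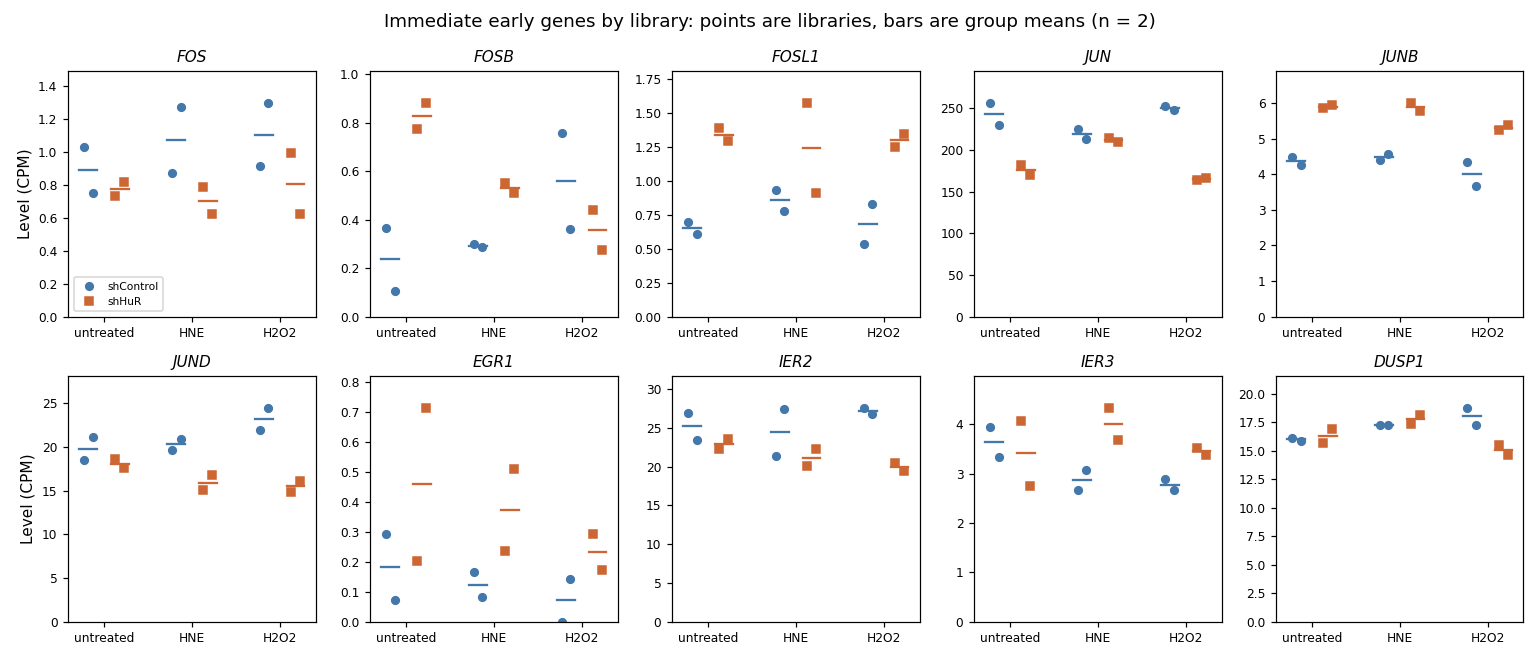
Level of each of the 10 genes in CPM (vertical axes, linear from 0, a scale per gene) by treatment, with shControl libraries as circles and shHuR libraries as squares and the mean of 2 as a bar. JUNB is the gene whose 6 shHuR libraries all lie above all 6 shControl libraries, and the JUN lines meet under HNE.

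The comparison of the lines asks which of these mRNAs differ when HuR is reduced. Over all treatments 6 of 10 differed with edgeR's quasi-likelihood test at an adjusted p under 0.05, 3 higher in shHuR (JUNB, FOSL1 and EGR1) and 3 lower (JUN, JUND and IER2). Among all 16005 genes 29.9% were called in that comparison, 14.1% higher and 15.9% lower. The count of 6 includes EGR1, which passed the count filter through shHuR alone and whose call was lost in some other fits (values below). The other 5 were JUNB and FOSL1 (higher) and JUN, JUND and IER2 (lower). In such bulk RNA, fewer cells with a transcript and less of it per cell cannot be told apart. The median log2 fold change of the 10 was 0.09, against -0.00 (-0.0018) over all genes tested. Within untreated cells 1 of 10 was called, JUN (7.98% of all genes were called and 4.48% were called lower). Under HNE 0 of 10 were called (background 8.27%), with 2 at an unadjusted p under 0.05 and 0 with DESeq2. Under H2O2 3 of 10 were called, JUN, JUND and IER2, all lower in shHuR (4.67% of all genes were called lower and 7.19% in either direction).

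JUN, the main partner in AP-1 and the most abundant of the 10, was lower in shHuR in 2 of the 3 treatments. Untreated shControl libraries had 257 and 230 CPM and untreated shHuR libraries 181 and 170 CPM. With H2O2 the values were 252 and 249 CPM in shControl and 164 and 166 CPM in shHuR. In both settings every shHuR library lay below every shControl library. Here and below, groups of 2 libraries separate often by chance, and the share of all genes that did so was not counted. With HNE the lines overlapped, at 225 and 213 CPM in shControl and 215 and 209 CPM in shHuR. The log2 fold change between lines was -0.47 untreated (SE 0.0688, edgeR adjusted p = 0.00120) and -0.60 with H2O2 (SE 0.0689, adjusted p = 0.000254). With HNE it was -0.05 (SE 0.0686, adjusted p = 0.734). The value over all treatments, -0.37 (adjusted p = 0.000574), averages these 3 estimates. That the difference with HNE departs from the untreated one did not pass in the interaction test (0.43, edgeR adjusted p = 0.712, described below).

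JUND, the JUN family member usually present in resting cells, was also lower in shHuR, most so with H2O2. Its H2O2 libraries had 21.9 and 24.5 CPM in shControl and 14.9 and 16.1 CPM in shHuR. With HNE they had 19.7 and 21.0 CPM in shControl and 15.1 and 16.8 CPM in shHuR. These groups did not overlap, whereas untreated shControl libraries (18.5 and 21.1 CPM) overlapped the shHuR ones (18.6 and 17.6 CPM). The log2 fold change was -0.58 with H2O2 (SE 0.111, edgeR adjusted p = 0.00652), -0.35 with HNE (SE 0.111, adjusted p = 0.0688) and -0.13 untreated (SE 0.110, adjusted p = 0.523). Averaged over treatments, JUND gave -0.35 (SE 0.0756, adjusted p = 0.00191). The H2O2 call was lost without replicate 1 of the H2O2-treated shHuR group (-0.53, adjusted p = 0.0917).

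JUNB, which forms AP-1 dimers that are generally weaker activators than those of JUN, went the other way. In shControl the untreated pair had 4.48 and 4.26 CPM, the HNE pair 4.40 and 4.58 CPM and the H2O2 pair 4.36 and 3.67 CPM. In shHuR the corresponding pairs had 5.86 and 5.94, 6.01 and 5.80, and 5.25 and 5.38 CPM. All 6 shHuR libraries exceeded all 6 shControl libraries, a separation that 1 of the 10 genes and 12.1% of all genes showed. The difference was nearly the same in each treatment, at 0.43 untreated, 0.40 with HNE and 0.41 with H2O2 on the log2 scale (edgeR adjusted p = 0.115, 0.146 and 0.151). Averaged over treatments, JUNB was higher by 0.41 (SE 0.0907, adjusted p = 0.00243), from a mean of 4.29 ± 0.324 to 5.71 ± 0.316 CPM (SD, n = 6).

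Of the FOS family, FOSL1 (also called FRA1) was higher in shHuR over all treatments. Its 6 shControl libraries ran from 0.531 to 0.934 CPM with a median of 0.738, and its 6 shHuR libraries from 0.911 to 1.57 CPM with a median of 1.32. They overlapped by 1 shHuR library, replicate 2 with HNE (0.911 CPM), against replicate 1 with HNE of shControl. The log2 fold change was 0.82 (SE 0.226, edgeR adjusted p = 0.0106), with 1.03 untreated, 0.52 with HNE and 0.92 with H2O2, none of which passed alone (adjusted p = 0.134, 0.449 and 0.182).

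FOS itself, the prototype of the family, ran from 0.751 to 1.30 CPM in shControl (median 0.970) and from 0.620 to 0.991 CPM in shHuR (median 0.759), and its estimate of -0.42 on the log2 scale (SE 0.236) did not pass (edgeR adjusted p = 0.198). FOSB, its closest relative, had 0.368 and 0.107 CPM in untreated shControl and 0.773 and 0.882 CPM in untreated shHuR cells, where the log2 fold change was 1.79 (SE 0.611, unadjusted p = 0.0109, edgeR adjusted p = 0.0886). Dropping the first untreated shControl library moved this to 2.90, and dropping the second moved it to 1.17. With H2O2 the FOSB estimate was -0.64 (adjusted p = 0.573) and the libraries overlapped.

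EGR1, which binds GC-rich promoter sites, was close to the limit of detection. It had 8 and 2 counts untreated, 5 and 2 with HNE and 0 and 4 with H2O2 in shControl, against 5 and 21, 6 and 14, and 8 and 5 in shHuR. The lines overlapped over all treatments and in untreated cells. The log2 fold change over all treatments was 1.47 (SE 0.534, edgeR adjusted p = 0.0466), but as EGR1 passed the count filter only through its higher shHuR libraries, this call is not independent of that filter. The fit without a count filter also called EGR1. The call was lost with DESeq2 (1.51, adjusted p = 0.0521) and without any 1 of 9 of the 12 libraries, down to 1.18 without replicate 2 of the untreated shHuR group.

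The promoter of EGR1 is known for its CArG boxes, the sites of serum response factor (SRF). In the RefSeq window from 250 bases before to 50 bases after the start (GRCh38.p14, both strands, 8 of the 10 genes found), EGR1 was the only gene of those 8 with a CArG box, and it had 2. A box occurred in 1.29% of 27305 promoters. The 2 are shown with the box in capitals:
EGR1, chr5:138465364-138465393, plus strand: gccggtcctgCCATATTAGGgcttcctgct
EGR1, chr5:138465386-138465415, plus strand: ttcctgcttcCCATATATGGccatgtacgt

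Of the other motifs searched there, TGACGTCA (the cAMP response element) was found once each in JUND and DUSP1 (1.98% of all promoters). TGACTCA (the AP-1 motif, 4.92% of promoters) and GCGTGGGCG (the EGR motif, 0.784% of promoters) were found in none of the 8.

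IER2, a nuclear protein of the early serum response, was lower in shHuR. With H2O2 it had 27.5 and 26.7 CPM in shControl and 20.5 and 19.4 CPM in shHuR, which did not overlap. The untreated libraries (26.9 and 23.4 against 22.3 and 23.6 CPM) and the HNE libraries (21.4 and 27.4 against 20.0 and 22.2 CPM) did overlap. The log2 fold change was -0.44 with H2O2 (SE 0.120, edgeR adjusted p = 0.0413) and -0.26 over all treatments (SE 0.0728, adjusted p = 0.0121). The H2O2 call lay at the edge of the threshold, with an adjusted p of 0.0546 when scaled by library size alone and 0.232 without replicate 2 of the H2O2-treated shHuR group.

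IER3 and DUSP1, 2 of the 3 genes richest in pentamers, were not called in any line comparison. FOS, the other of the 3, had 17 to 36 counts per library and was not called either. IER3, which modulates cell survival, had log2 fold changes of -0.10 untreated, 0.48 with HNE and 0.32 with H2O2 (edgeR adjusted p = 0.839, 0.214 and 0.448). DUSP1 was among the steadiest of the 10, at 14.6 to 18.7 CPM over the 12 libraries, and the lines differed by -0.06 over all treatments (log2, SE 0.0654, adjusted p = 0.522). With H2O2 both its shHuR libraries (15.5 and 14.6 CPM) lay below the shControl ones (18.7 and 17.3 CPM), a difference of -0.26 that did not pass (unadjusted p = 0.0233, adjusted p = 0.145).

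**Figure D2:**
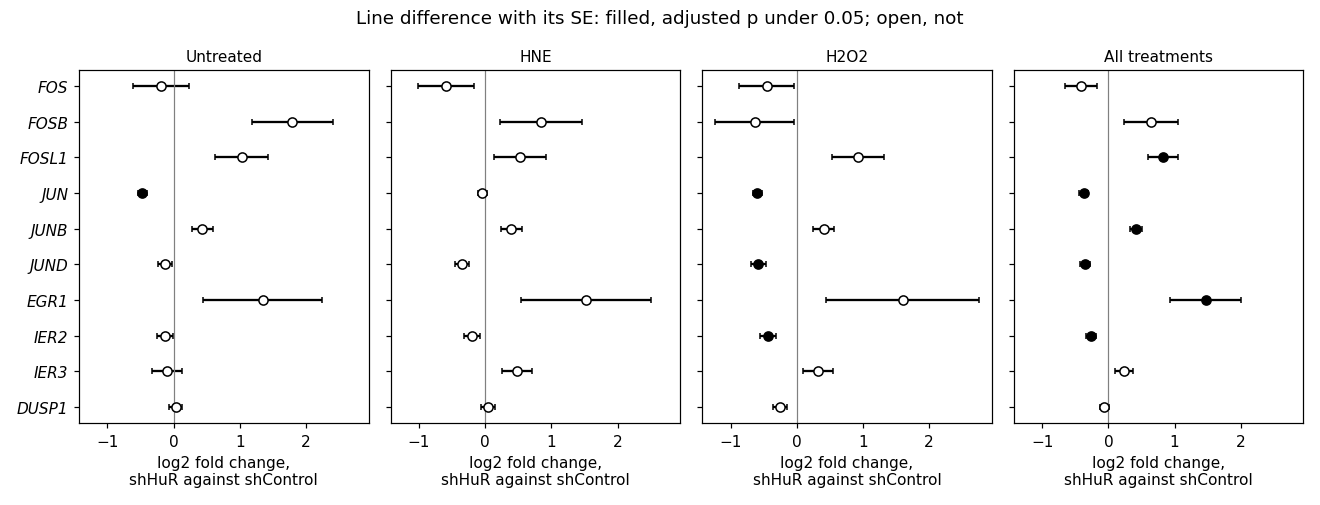
Log2 fold change between the lines (horizontal axis, shHuR against shControl) with its SE for each gene, in each treatment and over all, filled where edgeR's adjusted p was under 0.05. JUN is at -0.47 untreated, -0.05 with HNE and -0.60 with H2O2, while JUNB stays between 0.40 and 0.43.

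The comparison of treated with untreated cells asks whether either stressor left these genes altered at 18 h. None of the 10 was called for HNE in shControl, in shHuR or in both lines together with edgeR's test, with 1, 1 and 0 at an unadjusted p under 0.05. In both lines together the estimates ran from -0.38 (EGR1) to 0.12 on the log2 scale (median -0.01). The background was low too, at 0.0187%, 0.075% and 0.247% of all genes. For H2O2 0 of 10 were called in either line and 0 of the 9 tested in both lines together (EGR1 was filtered out there), with none at an unadjusted p under 0.05. In both lines together the estimates ran from -0.18 to 0.19, and 0% of all genes were called (861 at an unadjusted p under 0.05, 3 called with DESeq2). DESeq2 gave 0 called members in these comparisons except HNE in shHuR, where it called JUN (0.27, adjusted p = 0.0405). HNE and H2O2 are set against the same untreated libraries, so their estimates are not independent.

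The 2 genes at an unadjusted p under 0.05 for HNE were the same gene with opposite sign. JUN went from 257 and 230 CPM to 225 and 213 CPM with HNE in shControl, which is -0.15 on the log2 scale (SE 0.0685, unadjusted p = 0.0425, edgeR adjusted p = 0.414). In shHuR it went from 181 and 170 CPM to 215 and 209 CPM, which is 0.27 (SE 0.0688, unadjusted p = 0.00144, adjusted p = 0.186). Treated and untreated libraries did not overlap in either line, which is common by chance with 2 libraries on each side.

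**Figure D3:**
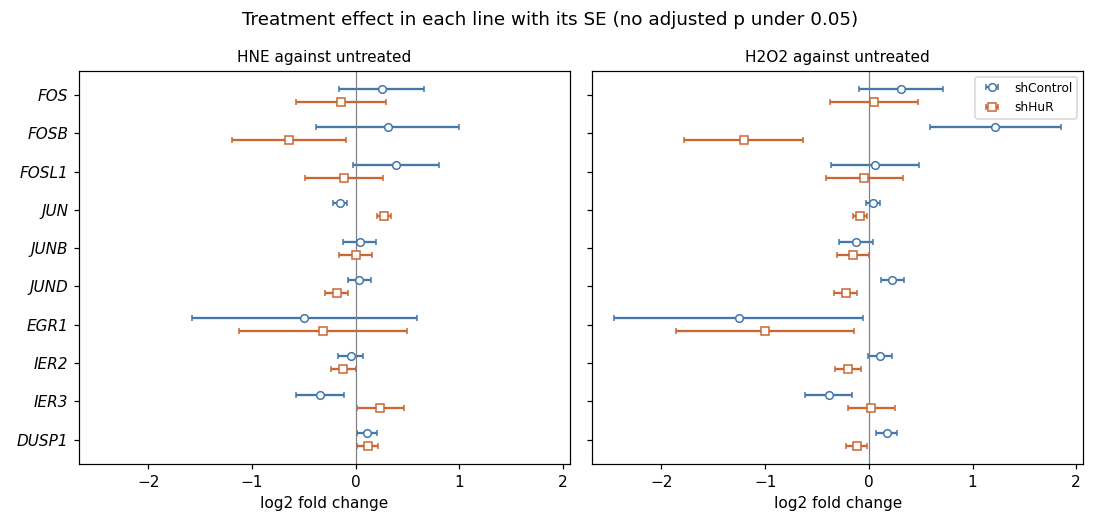
Log2 fold change of HNE (left) and H2O2 (right) against untreated cells in each line (circles shControl, squares shHuR) with its SE. No estimate passed edgeR's adjusted threshold, the JUN estimates for HNE are -0.15 and 0.27, and the widest bars belong to EGR1 and FOSB, which had few counts.

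The interaction of line and treatment tests whether the response differs between the lines. With edgeR 0 of 10 members and 0 of 16005 genes passed for HNE or for H2O2, with 1 and 2 members, and 1077 and 580 genes, at an unadjusted p under 0.05. DESeq2 called 3 genes in each and no member. For JUN and HNE the interaction was 0.43 (SE 0.0971, unadjusted p = 0.000636, adjusted p = 0.712). It was positive in each of 17 alternative fits, at 0.35 to 0.51, and 1 of them passed, the fit without a filter on low counts (0.42, adjusted p = 0.0353). DESeq2 gave 0.43 with an adjusted p of 0.173. For JUND the H2O2 interaction came to -0.45 (SE 0.156, unadjusted p = 0.0120, adjusted p = 1.00). That of FOSB came to -2.43 (SE 0.856, unadjusted p = 0.0133, adjusted p = 1.00) on 3 to 26 counts.

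ATF3, a stress-induced partner of JUN, had the pattern most like that of JUN among genes with a mean of at least 5 CPM outside the 10. Pearson's r of log2 CPM was 0.94 over the 12 libraries, 0.72 within the 6 shControl and 0.97 within the 6 shHuR libraries. These libraries differ in line and share depth and handling, and the gene was picked for its likeness, so no test is given. In shControl the untreated ATF3 levels were 33.7 and 29.3 CPM, the HNE levels 31.9 and 30.5 CPM and the H2O2 levels 38.2 and 40.4 CPM. In shHuR, in the same order, they were 24.3 and 23.0, 29.5 and 29.7, and 21.8 and 24.1 CPM. As with JUN, the lines were apart untreated (-0.41, edgeR adjusted p = 0.0188) and with H2O2 (-0.78, adjusted p = 0.000378), and the HNE estimate was nearer 0 (-0.08, adjusted p = 0.673). The untreated ATF3 call was lost without replicate 1 of untreated shControl (-0.31, adjusted p = 0.190) and without replicate 1 or 2 of untreated shHuR (-0.45 and -0.37, adjusted p = 0.0592 and 0.145), whereas that of JUN passed in each of the 12 fits that left out a library. Unlike the ranges of JUN with HNE, those of ATF3 did not overlap there. Its interactions were 0.34 for HNE and -0.36 for H2O2 (unadjusted p = 0.0247 and 0.0181, adjusted p = 0.712 and 1.00). The next most like JUN were DST (r = 0.94), a cytoskeletal linker, and LOC100507032 (r = 0.94). Within shControl their r was lower, at 0.61 for DST and 0.39 for LOC100507032, against 0.96 and 0.94 within shHuR.

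**Figure D4:**
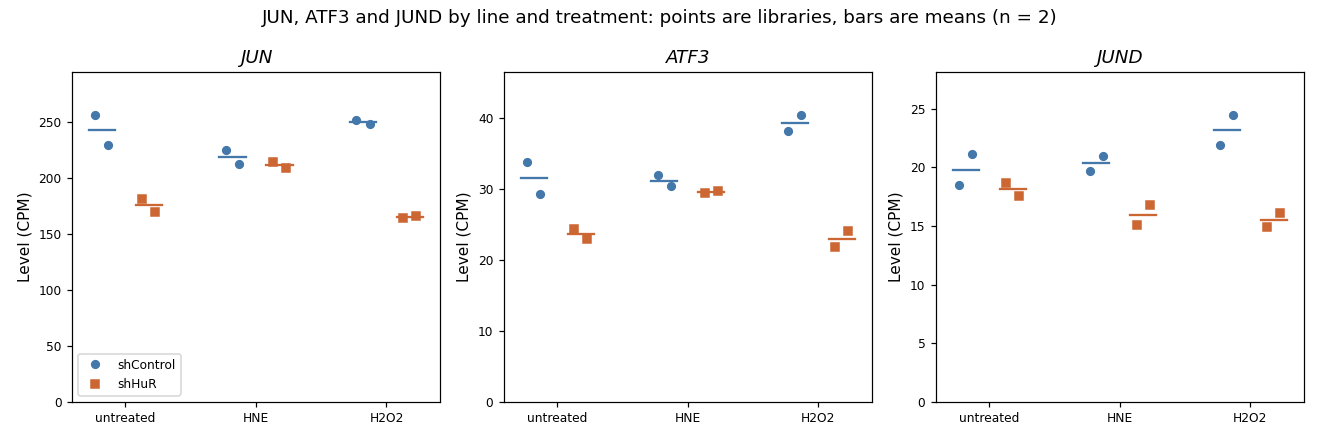
Level in CPM (linear axes from 0) of JUN, ATF3 and JUND by treatment, circles for shControl and squares for shHuR libraries, with the mean of 2 as a bar. JUN and ATF3 are apart between the lines untreated and with H2O2 and close with HNE, and JUND is furthest apart with H2O2.

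The other members showed less specific neighbours. The mean standardized profile of the 10 was most like C17orf49 (r = 0.85), PIK3CD (0.83), WSCD1 (0.80), CLIP2 (0.79) and HSF1 (0.78). EGR1 was most like MAP3K11 (0.91), BAG3 (0.90) and NT5DC2 (0.90), and FOS most like CLCN7 (0.92), MTHFSD (0.91) and PLCB3 (0.90). None of these is in the pathway lists below. All were picked for the highest r among many genes, so no test is given. EGR1 had 0 to 21 and FOS 17 to 36 counts per library, so their profiles were imprecise. With genes down to a mean of 1 CPM allowed, the neighbours of JUN and FOS were the same genes, and EGR1 was most like ABHD4 (0.92). Among pairs of the 10, r ran from -0.82 (JUNB and JUND) to 0.78 (JUND and IER2), but JUNB and JUND were at -0.81 within shControl and 0.46 within shHuR.

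Related genes were described by 7 lists, set beside all genes in the comparison of lines over all treatments. Among all genes 29.9% were called, 14.1% higher and 15.9% lower (median -0.0018). The share called was 50% for AP-1 partners, 69.2% for kinase feedback regulators and 55.6% for reported AP-1 targets, each on 9 to 13 tested genes. It was nearer that of all genes for other early genes (32.1%), upstream kinases (36.8%), upstream factors (25%) and decay factors (23.1%). Of the other AP-1 and leucine zipper partners 5 of 10 tested were called. BATF3 (0.46, edgeR adjusted p = 0.00393) and ATF7 (0.37) were higher and ATF3 (-0.42, adjusted p = 0.00144), MAFG (-0.26, adjusted p = 0.00491) and MAFK (-0.22) lower, with a list median of -0.11. The MAFK call was lost without either of 2 libraries (adjusted p up to 0.0576). FOSL2, the remaining FOS relative, was at 0.01 (adjusted p = 0.955).

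Of 28 other immediate early genes tested (30 listed) 8 were higher and 1 lower, with a median of 0.05. NFKBIA, the inhibitor of NF-κB, rose from 13.5 ± 1.02 to 18.9 ± 1.24 CPM (SD, n = 6; log2 0.49, edgeR adjusted p = 2.67e-05). The helix-loop-helix inhibitors ID3 (0.49, adjusted p = 4.60e-05) and ID1 (0.44, adjusted p = 0.000568) were higher too, as were GADD45B (0.65), SGK1 (0.64), IER5 (0.24), CSRNP1 (0.31) and IER5L (0.35), and GADD45A was lower (-0.16). Of these calls that of GADD45A was lost without any 1 of 9 of the 12 libraries (adjusted p up to 0.106), with library size alone (0.0667) and without a count filter (0.0855). The IER5L call was lost without any 1 of 8 libraries (up to 0.126) and the CSRNP1 call without any 1 of 6 (up to 0.0680). With HNE in both lines ID1 rose by 0.54 (adjusted p = 0.0366), and in shHuR alone RHOB, a stress-induced GTPase, rose by 0.40 (adjusted p = 0.0475). Neither call was firm. That of ID1 was lost without any 1 of 6 of the 12 libraries (adjusted p up to 0.223). That of RHOB was lost without any 1 of 9 libraries (adjusted p up to 0.634) and with library size alone (0.0607). The interaction for these genes did not pass.

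Feedback regulators of MAP kinases were called in 9 of 13 tested, 4 higher and 5 lower, with a median of 0.12. DUSP16, a phosphatase of JNK and p38, fell from 56.7 ± 2.53 to 41.7 ± 3.72 CPM (SD, n = 6; log2 -0.45, edgeR adjusted p = 4.24e-06). SPRY2 (-0.42, adjusted p = 8.56e-05), SPRED1 (-0.39), SPRY1 (-0.43) and DUSP8 (-0.49) were lower as well. DUSP14 was higher (0.50, adjusted p = 1.46e-05), as were DUSP7 (0.36), SPRED2 (0.34) and DUSP2 (0.77). The calls of DUSP8 and DUSP2 were each lost without any 1 of 8 of the 12 libraries (adjusted p up to 0.127 and 0.125), that of DUSP8 also with library size alone (0.0559). The SPRED2 call was lost without any 1 of 6 libraries (up to 0.0876). The phosphatases and the Sprouty and SPRED inhibitors thus had members on both sides, except that both called Sprouty genes were lower.

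Upstream, 7 of 19 receptors and kinases were called, 4 higher and 3 lower (median -0.02). MAP2K1, the kinase MEK1, had 65.4 ± 3.28 CPM in shControl and 78.4 ± 2.39 CPM in shHuR (SD, n = 6; log2 0.26, edgeR adjusted p = 0.000260), and HRAS (0.30), RPS6KA1 (0.19) and MAP2K2 (0.18) were also higher. NRAS (-0.20, adjusted p = 0.000988), MAPK9 (-0.18, adjusted p = 0.00242), which encodes a JNK, and RPS6KA3 (-0.15) were lower. Of 12 factors acting on early promoters 3 were called (25%, against 29.9% of all genes), all higher. These were MKL2 (0.39, adjusted p = 0.00274) and ELK1 (0.29, adjusted p = 0.00435), both cofactors of SRF, and SRF itself (0.15, adjusted p = 0.0305). The calls of SRF and MAP2K2 were each lost without any 1 of 6 of the 12 libraries (adjusted p up to 0.0761 and 0.113).

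Of 13 decay factors 3 were called (23.1%, against 29.9% of all genes), all higher. These were KHSRP, which binds AU-rich elements (143 ± 18.6 against 209 ± 21.7 CPM, SD, n = 6; log2 0.55, edgeR adjusted p = 9.10e-06), and CNOT7 (0.39, adjusted p = 1.49e-06) and CNOT6 (0.11, adjusted p = 0.0448), both deadenylases. The CNOT6 call was lost without any 1 of 9 of the 12 libraries (adjusted p up to 0.115) and without a count filter (0.0840). ZFP36 was at -0.10 (adjusted p = 0.881) and HNRNPD at 0.01 (adjusted p = 0.899). Of 9 reported AP-1 target genes tested (16 listed) 4 were lower and 1 higher, with a median of -0.33. CCND1, the cyclin of early G1, was at 56.8 to 60.7 CPM in shControl and 24.5 to 29.8 CPM in shHuR (log2 -1.09, adjusted p = 3.46e-10). VEGFA (-0.41, adjusted p = 3.11e-06), VIM (-0.37, adjusted p = 2.16e-05) and TIMP1 (-0.33, adjusted p = 0.0113) were lower and HBEGF higher (0.40, adjusted p = 0.0269). The HBEGF call was lost without any 1 of 4 libraries (adjusted p up to 0.0751). Whether the level of any AP-1 subunit bears on these genes was not tested.

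Across the transcriptome, genes with an AU-rich nonamer were compared with those without, as a description. Over all treatments 20.6% of 1246 tested genes with a nonamer were called lower in shHuR and 13.0% higher, against 15.7% and 15.5% of 12265 genes without. The medians were -0.02 and 0.01 on the log2 scale. The contrast was unequal between treatments. Genes with a nonamer were called lower in 6.82% and higher in 2.17% untreated (4.46% and 4.01% without one), and in 6.34% and 2.01% with H2O2 (4.83% and 2.80%). With HNE they were called lower in 5.54% and higher in 3.21%, close to the 4.85% and 3.49% of genes without one, and both medians were nearly 0 (-0.00084 and -0.00020). The 3′ UTRs of the first group were longer (median 3060 against 1235 bases), and the part of length in the difference was not tested. Of the 2 members with a nonamer, FOS was at -0.42 (SE 0.236, 17 to 36 counts per library) and DUSP1 at -0.06 (SE 0.0654), neither called. Of those without one, JUN (-0.37, SE 0.0686), JUND (-0.35, SE 0.0756) and IER2 (-0.26, SE 0.0728) were called lower. JUNB (0.41), FOSL1 (0.82) and EGR1 (1.47, which passed the count filter through shHuR alone) were called higher. The FOS estimate lay below that of JUN with a wider SE, and whether the nonamer bears on any of these was not tested.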

How the data were processed

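The authors deposited 2 tables with 1 column per library. One holds estimated counts per gene symbol (2.25% of the deposited values were not whole, none in the 10 genes), which were rounded before testing. The other holds FPKM values as scaled by the authors, used here only to compare levels between genes. The submitters' processing notes name cutadapt 1.8, Bowtie2 2.2, TopHat2 2.1, Cufflinks 2.2, Cuffnorm and Cuffdiff, and the builds GRCh37 and hg19. Which tool made which table, the annotation and the use of strand are not given in the sources used here. Positions and sequences are from GENCODE 29 and RefSeq on GRCh38 and were matched by symbol, never by coordinate.

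Counts were filtered with filterByExpr (minimum count 10), scaled with TMM and tested with edgeR 4.0.16 (quasi-likelihood F-test, Benjamini-Hochberg adjustment over all genes, threshold 0.05). Comparisons within a treatment or line and interactions used 6 group means. The line effect over all treatments used all 12 libraries with treatment as covariate, and the HNE and H2O2 effects in both lines used 8 libraries with line as covariate. Each SE was derived from the fold change and its F value (F is the squared ratio of the log2 fold change to its SE). The test was checked on simulated counts with 200 changed genes. Log2 changes of 0.5 and 1 were recovered in 65.7% and 79.1% for the line over all treatments. The shares were 55.2% and 76.1% for HNE and 62.7% and 77.6% for H2O2 in both lines. They were lower for the line in untreated cells (32.8% and 67.2%) and the HNE interaction (13.4% and 53.7%). For a gene drawn at random, an HNE interaction of 0.5 would thus mostly be missed. The 200 changed genes were drawn at random from all genes tested, whereas 4787 genes were called between the lines over all treatments. The shares therefore need not hold for that comparison or for the 10 genes, whose counts differed widely.

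The members, lists and tests were chosen with earlier results of these data known. Named genes were the 10, ELAVL1, the list genes called in the line, HNE or H2O2 comparisons (all of those called over all treatments are named, beyond the planned 3 per list) or in 1 line alone, and the genes most like the members by Pearson's r. ATF7, FOSL2, ZFP36 and HNRNPD, and the further list genes, were named after their values were seen. Alternatives were DESeq2 1.42.0, DESeq2-style size factors, library size alone, no count filter, a replicate block and leaving out each library.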

Additional observations from a re-analysis of the deposited data

Results flagged for a closer look

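Both HNE-treated shControl libraries had less JUN than both untreated ones, and both HNE-treated shHuR libraries had more. Groups of 2 libraries separate often by chance, and neither HNE effect passed (edgeR adjusted p = 0.414 in shControl and 0.186 in shHuR). The interaction, which tests whether the response differed between the lines, gave 0.43 on the log2 scale (unadjusted p = 0.000636, edgeR adjusted p = 0.712).

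JUND with H2O2 was higher than untreated in both shControl libraries and lower in both shHuR libraries, with an interaction of -0.45 (unadjusted p = 0.0120, edgeR adjusted p = 1.00). DUSP1 with H2O2 showed the same arrangement, with an interaction of -0.29 (unadjusted p = 0.0624, edgeR adjusted p = 1.00). None of these differences passed the adjusted threshold.

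The second H2O2-treated shControl library, with JUNB at 3.67 CPM, stood apart from the other 5 shControl libraries, the nearest of which had 4.26 CPM. It was 1 such library in 20 sets of 6 examined, and chance gives about 1 in 20.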

How the results depend on the processing

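With 2 libraries per group, counts of called genes depended on single libraries. Leaving out 1 library at a time gave 3898 to 5240 genes for the line over all treatments (4787 with all libraries), 242 to 2055 untreated (1277), 164 to 1890 with HNE (1324) and 290 to 1845 with H2O2 (1151). It gave 3 to 168 genes for HNE in both lines (39), 0 to 859 in shControl (3) and 3 to 62 in shHuR (12), and 0 to 1, 0 to 4 and 0 to 2 for H2O2 in the same order. For the interactions it gave 0 to 87 (HNE) and 0 to 3 (H2O2). Members called ran from 5 to 6 over all treatments and from 1 to 3 with H2O2.

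Without a filter on low counts, 1949, 2061 and 1802 genes were called between the lines untreated, with HNE and with H2O2. For HNE these were 334 in both lines, 329 in shControl and 198 in shHuR, for H2O2 117, 91 and 33, and for the interactions 103 and 36, with 1 member, JUN. DESeq2 called 176, 62 and 97 genes for HNE (1 member in shHuR), 3, 2 and 3 for H2O2, and 3 and 3 for the interactions. With library size alone 7 genes were called for HNE in shHuR, and 2604 of 4765 genes were higher in shHuR over all treatments, against 2249 of 4787 with TMM.

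Replicate numbers did not visibly pair the samples. The difference in log2 CPM between replicates 1 and 2 of a group was correlated over genes between groups. This r ran from -0.11 to 0.13, with 2 of 15 pairs of groups over 0.1. With the replicate number as a block, 14 genes were called for HNE in both lines and 6 in shHuR, EGR1 over all treatments was 1.43 (edgeR adjusted p = 0.0628), IER2 with H2O2 -0.44 (adjusted p = 0.0556), and FOSL1 with H2O2 in both lines -0.0012. Of the list genes called over all treatments, GADD45A (adjusted p = 0.0519), DUSP2 (0.0616) and CNOT6 (0.0536) did not pass with the block, nor did ID1 with HNE in both lines (0.0700) or RHOB with HNE in shHuR (0.0748).

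Some estimates changed sign when 1 library was left out, none of them called. Many were near 0, but not EGR1 with HNE in both lines (-0.38), FOSB with HNE in shControl (0.31) or FOS between lines untreated (-0.20). Between lines those that changed sign were FOS untreated (-0.41 to 0.0446), IER3 untreated (-0.39 to 0.17), DUSP1 untreated (-0.0238 to 0.0903) and JUN with HNE (-0.0855 to 0.0064). For HNE in both lines they were FOS (-0.10 to 0.17), FOSL1 (-0.0070 to 0.32), JUN (-0.0060 to 0.13), EGR1 (-0.74 to 0.13) and IER3 (-0.21 to 0.0573). For H2O2 in both lines they were FOSB (-0.63 to 0.28), FOSL1 (-0.12 to 0.0884), JUN (-0.0645 to 0.0093), JUND (-0.0749 to 0.0754), IER2 (-0.11 to 0.0058) and DUSP1 (-0.0239 to 0.0819). Within a single line and for the interactions, sign changes were examined only for JUN, JUND, FOSB, IER2, DUSP1 and ATF3. FOS, FOSL1, JUNB, EGR1 and IER3 were not examined there. In shControl alone the estimates that changed sign were FOSB (-0.32 to 1.41), JUND (-0.0566 to 0.13), IER2 (-0.23 to 0.12) and ATF3 (-0.12 to 0.0911) with HNE and JUN with H2O2 (-0.0356 to 0.12). In shHuR it was ATF3 with H2O2 (-0.11 to 0.0283). For the HNE interaction the estimates that changed sign were IER2 (-0.23 to 0.11) and DUSP1 (-0.0448 to 0.0647). The IER2 call with H2O2 was lost without any 1 of 10 of the 12 libraries (-0.48 to -0.40). Except where a count filter or fewer libraries define the setting, the cause was not tested. FOS, FOSB, FOSL1 and EGR1 had at most 40 counts per library, which limits what could be detected for them.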
